A study of Mus musculus with 9 samples.

Results

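The p38 and AU-rich element axis links stress kinases to the lifetime of cytokine mRNAs, and it was described here through 10 genes of the 55487 counted in resting RAW264.7 macrophages. The genes were listed by name and function: the kinases Map2k3, Map2k6, Mapk14, Mapkapk2 and Mapkapk3, the phosphatase Dusp1, and the RNA-binding proteins Zfp36, Zfp36l1, Zfp36l2 and Elavl1. Mapkapk2 was also chosen by its measured log2 fold changes against wild-type, which had opposite signs in both edited genotypes, so that its values are given as a description without a test. Of the 10 genes, 9 had enough counts to be tested among 14312 genes. Mapkapk3 did not, and Map2k6 passed this filter only through its counts in ΔTAD macrophages, so that it had to differ between the genotypes.

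In this pathway, the kinases MKK3 (Map2k3) and MKK6 (Map2k6) phosphorylate p38α (Mapk14), which in turn activates MK2 (Mapkapk2) and its relative MK3 (Mapkapk3). MK2 phosphorylates tristetraprolin (Zfp36) and thereby restrains a protein that otherwise binds AU-rich elements in the 3′ untranslated region (UTR) of cytokine mRNAs and recruits the deadenylation machinery. Zfp36l1 and Zfp36l2 are relatives of tristetraprolin, HuR (Elavl1) binds similar elements and is known for stabilising them, and Dusp1 is a nuclear phosphatase that inactivates p38 and JNK.

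RNA was taken from RAW264.7 cells, a mouse macrophage-like line, that were cultured without any stimulation, 3 libraries for each of 3 genotypes. Wild-type cells carried the unedited Cebpd gene, which encodes the transcription factor C/EBPδ. Knock-out and ΔTAD cells were both made with CRISPR guides directed at the transactivation domain of C/EBPδ at the endogenous locus: the deletion keeps the reading frame in ΔTAD macrophages and disrupts it in knock-out macrophages. Edited lines were expanded from sorted single cells under puromycin. The submitters mention 3 independent clones without saying whether each library is 1 clone, so that p-values measure the spread between these libraries, which may be technical.

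The libraries held 16113306 to 20981829 counts on genes, and values are given as CPM, counts scaled to the library size after TMM correction. ΔTAD replicate 1 stood apart: 11.00% of its counts fell on the ribosomal RNA feature CT010467.1, against 0.303% to 1.16% in the other libraries. Without this library, the log2 fold changes of the tested members moved by at most 0.04 and no call on a member was lost or gained. Cebpd was expressed at 6.13, 7.29 and 6.12 CPM in wild-type, at 5.22, 5.50 and 5.61 CPM in knock-out and at 4.90, 5.23 and 6.19 CPM in ΔTAD libraries. Counts over the whole gene do not check the edit, which leaves most of the transcript in place. Of 10 macrophage markers, 9 had more than 3 counts in a library, with Mertk at or below that. The summed level of these markers lay at 3498 to 3686 CPM in wild-type, 4613 to 4995 in knock-out and 7126 to 7304 in ΔTAD libraries, whereas 7 lymphoid markers together reached at most 0.288 CPM and 8 stromal or epithelial markers at most 1.70 CPM. Lyz2 took most of this rise, with means of 1167, 2114 and 4192 CPM, whereas Fcgr1 fell by 1.14 in knock-out and by 0.44 in ΔTAD macrophages on the log2 scale (edgeR adjusted p = 2.2e-12 and 5.6e-06). In RNA from whole cultures, fewer cells that express a gene and less RNA per cell cannot be told apart.

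The proteins of the Zfp36 family are known to bind a nonamer that is written TTATTTATT in DNA letters. It was present in the annotated 3′ UTR of 5 of the 10 genes, namely all 3 Zfp36 family genes, Dusp1 and Elavl1, and in none of the 5 kinases. Among 21016 genes with an annotated 3′ UTR, 1610 or 7.66% held it. Sites in these mRNAs are shown, beside those of Tnf and Ptgs2 as known targets, because the axis carries the motif that its own proteins bind. Capitals mark the nonamer, and positions refer to GRCm38.
Zfp36, chr7:28376950-28376979, minus strand: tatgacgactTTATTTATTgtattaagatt
Zfp36l1, chr12:80108166-80108195, minus strand: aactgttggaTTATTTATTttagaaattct
Zfp36l2, chr17:84184913-84184942, minus strand: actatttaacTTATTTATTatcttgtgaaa
Dusp1 site 1, chr17:26506158-26506187, minus strand: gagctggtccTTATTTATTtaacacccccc
Dusp1 site 2, chr17:26505869-26505898, minus strand: gtttttacctTTATTTATTtttgtgtaggt
Elavl1 site 1, chr8:4285787-4285816, minus strand: gtcatgaaaaTTATTTATTtatttatttat
Tnf site 1, chr17:35199688-35199717, minus strand: tttgcacttaTTATTTATTatttatttatt
Ptgs2, chr1:150105790-150105819, plus strand: ctgaccatatTTATTTATTtatgtgaagaa
Elavl1 held 8 overlapping or neighbouring copies of the nonamer and Tnf held 5, whereas the Zfp36 family genes held 1 each. A match describes the sequence and does not show that a protein binds there.

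To assess how the axis differed between genotypes, each edited genotype was compared with wild-type macrophages, and both edited genotypes with each other. The comparisons with wild-type share the same 3 control libraries. Besides Mapkapk2, 8 members were tested. In knock-out macrophages 3 of them were called higher and 3 lower than wild-type at an adjusted p under 0.01, where 45.2% of all tested genes were called. In ΔTAD macrophages 4 were called higher and 3 lower, where 49.7% of all genes were called. Between knock-out and ΔTAD macrophages 3 were called, all lower in knock-out, where 33.0% of all genes were called. Since the genes were selected with earlier results known and Map2k6 had to differ, nothing is read from these counts.

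**Figure D1:**
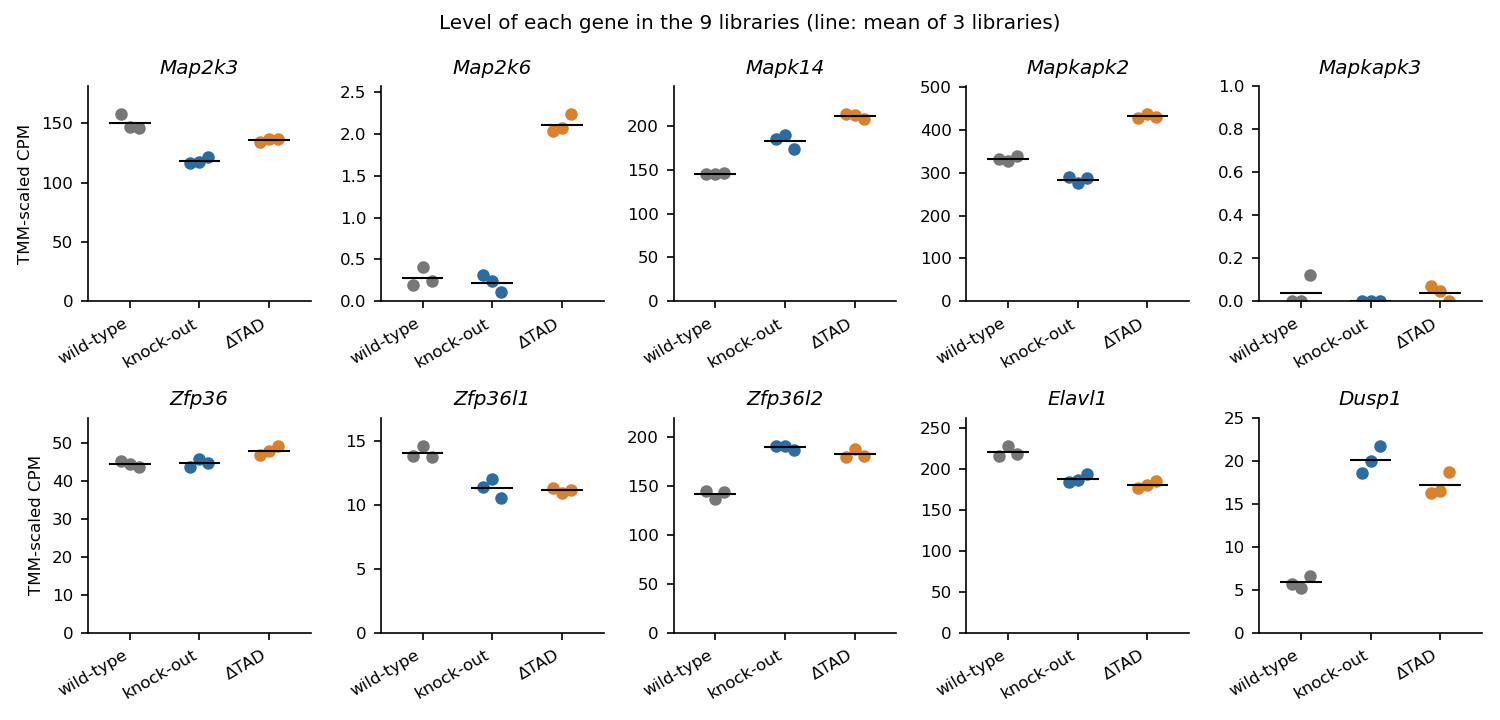
TMM-scaled CPM of each of the 10 genes (y axis, starting at 0, with a scale of its own per gene) in the 3 libraries of each genotype (x axis); points are libraries and the line is their mean. Mapkapk2 lies at 276 to 289.8 CPM in knock-out, 328 to 339 in wild-type and 429.0 to 437 in ΔTAD libraries, Dusp1 is higher in all 6 edited libraries than in wild-type, and Mapkapk3 stays at or near 0.

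Map2k3, the main activator of p38 detected here, was expressed at 158, 147 and 146 CPM in wild-type, at 116, 117 and 121 CPM in knock-out and at 134, 137 and 137 CPM in ΔTAD libraries. The 3 genotypes did not overlap, with ΔTAD between the others. Map2k3 fell by 0.35 on the log2 scale in knock-out (SE 0.036, edgeR adjusted p = 9.9e-09) and by 0.14 in ΔTAD macrophages (SE 0.035, edgeR adjusted p = 0.0013). The smaller change was not called without wild-type replicate 1 (log2 fold change -0.10, edgeR adjusted p = 0.0176). Knock-out was also lower than ΔTAD, by a log2 difference of -0.20 (edgeR adjusted p = 6.6e-05), a call that was lost when libraries were scaled by their size alone (edgeR adjusted p = 0.0968).

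Map2k6, the other p38 activator, was near the detection limit in 2 of the 3 genotypes. It had 4, 7 and 4 counts in wild-type, 6, 4 and 2 counts in knock-out and 29, 43 and 47 counts in ΔTAD libraries. Every ΔTAD library was above every other library, whereas wild-type and knock-out overlapped. The level in ΔTAD macrophages was 7.61 times that in wild-type over the summed counts (95% exact interval 4.43 to 14.0, counting error only), a log2 fold change of 2.89. For knock-out the value was -0.30, which changed sign without wild-type replicate 2 (0.05) or knock-out replicate 3 (0.01). No test is given for Map2k6, since it was tested at all only because of its level in ΔTAD macrophages. Even in ΔTAD macrophages Map2k6 made up 1.14% ± 0.058 (SD, n = 3) of the length-scaled level of the p38 activators Map2k3, Map2k4 and Map2k6 together, against 0.142% ± 0.057 in wild-type.

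Mapk14, which encodes p38α, was expressed at 145, 145 and 146 CPM in wild-type, at 185, 189 and 173 CPM in knock-out and at 213, 212 and 208 CPM in ΔTAD libraries. The genotypes did not overlap and wild-type was lowest. Mapk14 rose 1.26-fold in knock-out (log2 fold change 0.33, SE 0.037, edgeR adjusted p = 4.4e-08) and 1.45-fold in ΔTAD macrophages (log2 fold change 0.54, SE 0.037, edgeR adjusted p = 4.6e-12). Knock-out was below ΔTAD by a log2 difference of -0.21 (SE 0.036, edgeR adjusted p = 5.3e-05), which was not called when libraries were scaled by their size alone (edgeR adjusted p = 0.0925). Mapk14 lies on chromosome 17, whose genes shifted upwards in both edited genotypes, as described further on.

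Mapkapk2 encodes MK2, the kinase between p38 and the RNA-binding proteins. It was expressed at 332, 328 and 339 CPM in wild-type, at 289.8, 276 and 287 CPM in knock-out and at 429.0, 437 and 429.5 CPM in ΔTAD libraries. All knock-out libraries were below and all ΔTAD libraries above the wild-type range, the pattern for which the gene was chosen. Against wild-type the log2 fold change was -0.23 (SE 0.034) for knock-out and 0.38 (SE 0.034) for ΔTAD, and the difference between the edited genotypes was 1.52-fold. Leaving out each library in turn gave -0.24 to -0.20 and 0.35 to 0.39. The 20 nearest tested genes on chromosome 1, 10 on each side, changed by a median of 0.11 (knock-out) and -0.11 (ΔTAD) on the log2 scale, opposite in sign to Mapkapk2 in both. Its neighbour Il10, the gene for an anti-inflammatory cytokine, had 0 counts in all 9 libraries, which allows a level of up to 0.143 to 0.186 CPM depending on the library.

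Mapkapk3, the gene for MK3, had at most 2 counts in any library, namely 0, 0 and 2 in wild-type, 0, 0 and 0 in knock-out and 1, 1 and 0 in ΔTAD libraries. These values are below the floor of 3 counts, and a difference between genotypes was not detectable at this depth.

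Apart from Map2k6 in ΔTAD macrophages, Dusp1 had the largest difference from wild-type among the tested members. It was expressed at 5.73, 5.21 and 6.66 CPM in wild-type, at 18.66, 20.06 and 21.8 CPM in knock-out and at 16.3, 16.6 and 18.70 CPM in ΔTAD libraries. Every edited library was above every wild-type library, and the edited genotypes touched at their ends. Dusp1 rose 3.44-fold in knock-out (log2 fold change 1.78, SE 0.10, edgeR adjusted p = 1.3e-13) and 2.95-fold in ΔTAD macrophages (log2 fold change 1.56, SE 0.10, edgeR adjusted p = 2.1e-12). Between the edited genotypes the log2 difference was 0.22 (SE 0.081, edgeR adjusted p = 0.028), which missed the threshold of 0.01. Dusp1 also lies on chromosome 17, and its values remained at 1.30 and 1.06 after subtraction of the chromosome median. Its gene shares 11 exonic bases on the opposite strand with Ergic1, which had 31014 counts over all libraries against 2357 for Dusp1. Whether the counting used strand was not stated.

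Because Dusp1 moved most at a well-measured level, the 250 bases before its start are shown as given by RefSeq for GRCm38.p6, chr17:26508473-26508722, minus strand. Capitals mark the cAMP response element TGACGTCA, which begins 143 bases before the gene start.
Dusp1 promoter: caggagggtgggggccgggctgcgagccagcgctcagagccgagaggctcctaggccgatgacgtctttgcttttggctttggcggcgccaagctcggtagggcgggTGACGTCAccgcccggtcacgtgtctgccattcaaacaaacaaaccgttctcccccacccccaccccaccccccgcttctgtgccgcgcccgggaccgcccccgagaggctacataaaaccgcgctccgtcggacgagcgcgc
RefSeq windows from 250 bases before to 50 bases after the start were matched for 9 of the 10 genes, all but Zfp36l2. On either strand, TGACGTCA was found in Dusp1 alone of these, against 1.79% of 32851 windows. The C/EBP core TTGCNNAA was found in Mapk14 alone, against 10.8% of windows, and CCAAT was found in Elavl1, Map2k3, Mapk14 and Zfp36l1, against 37.4%. These are matches of letters and say nothing about binding.

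Zfp36, the gene for tristetraprolin, had the smallest changes of the RNA-binding members. It was expressed at 45.3, 44.6 and 43.7 CPM in wild-type, at 43.6, 45.7 and 44.8 CPM in knock-out and at 46.8, 47.8 and 49.3 CPM in ΔTAD libraries. Wild-type and knock-out overlapped, with a log2 fold change of 0.00 (SE 0.046, edgeR adjusted p = 0.96). ΔTAD libraries were slightly above both, with a log2 fold change of 0.11 (SE 0.045, edgeR adjusted p = 0.043) that missed the threshold of 0.01.

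Its relatives differed from wild-type in opposite directions. Zfp36l1 was expressed at 13.86, 14.64 and 13.75 CPM in wild-type, at 11.39, 12.02 and 10.54 CPM in knock-out and at 11.33, 10.95 and 11.18 CPM in ΔTAD libraries. Wild-type was above all edited libraries, and the edited genotypes overlapped. Zfp36l1 fell by 0.32 on the log2 scale in knock-out (SE 0.082, edgeR adjusted p = 0.0021) and by 0.34 in ΔTAD macrophages (SE 0.082, edgeR adjusted p = 0.0010). The call in knock-out was lost without wild-type replicate 2 (edgeR adjusted p = 0.0146), without knock-out replicate 3 (edgeR adjusted p = 0.0147) and with DESeq2 (adjusted p = 0.0106). An antisense gene annotated across 1672 exonic bases of Zfp36l1 was not analysed here.

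Zfp36l2 was expressed at 145.5, 137.4 and 143.9 CPM in wild-type, at 191.4, 191.7 and 186.8 CPM in knock-out and at 179.8, 188.5 and 181.0 CPM in ΔTAD libraries. Both edited genotypes were above wild-type and overlapped each other. Zfp36l2 rose 1.34-fold in knock-out (log2 fold change 0.42, SE 0.036, edgeR adjusted p = 3.9e-10) and 1.29-fold in ΔTAD macrophages (log2 fold change 0.36, SE 0.036, edgeR adjusted p = 3.7e-09). Per length, Zfp36l2 made up 69.7% ± 0.86 (SD, n = 3) of the Zfp36 family level in wild-type, 76.3% ± 0.43 for knock-out and 74.7% ± 0.66 for ΔTAD, whereas Zfp36l1 went from 8.15% ± 0.43 to 5.37% ± 0.27 and 5.38% ± 0.19. These shares also hold the shift of chromosomes 17 and 12, on which the respective genes lie.

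Elavl1, the gene for HuR, was expressed at 215.3, 228.5 and 218.7 CPM in wild-type, at 184.1, 187.1 and 193.6 CPM in knock-out and at 176.8, 180.8 and 184.8 CPM in ΔTAD libraries. All edited libraries were below wild-type, and the edited genotypes overlapped. Elavl1 fell by 0.23 on the log2 scale in knock-out (SE 0.037, edgeR adjusted p = 8.4e-06) and by 0.29 in ΔTAD macrophages (SE 0.037, edgeR adjusted p = 2.7e-07). The difference between the edited genotypes was 0.06 (SE 0.037, edgeR adjusted p = 0.21). Elavl1 shares 204 exonic bases on the opposite strand with Ccl25, which had 2333 counts over all libraries.

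Mapk14, Zfp36l2, Dusp1 and Zfp36l1 lie on chromosomes that shifted as a whole, and their changes have to be read beside that shift. On chromosome 17, which carries the first 3, the 746 tested genes had a median of 0.48 in knock-out and 0.50 in ΔTAD libraries, and 66.8% and 62.9% of the genes were called higher. On chromosome 12, which carries Zfp36l1, the median over 541 genes was -0.52 and -0.54, and 64.7% and 66.4% were called lower. All tested genes together had a median of 0.00 in both comparisons. After subtraction of the chromosome median, Mapk14 stood at -0.16 (knock-out) and 0.04 (ΔTAD), Zfp36l2 at -0.07 and -0.14, and Zfp36l1 at 0.21 and 0.21. The sign of the change against wild-type thus turned for Zfp36l1 and Zfp36l2 in both edited genotypes and for Mapk14 in knock-out macrophages, whereas that of Dusp1 did not. The 20 nearest tested genes of Mapk14 had medians of 0.32 (knock-out) and 0.20 (ΔTAD), where Mapk14 itself changed by 0.33 and 0.54. Beside these neighbours Mapk14 was not lower in either genotype, so that its turn of sign depends on the reference. The neighbours of Zfp36l2 stood at 0.53 and 0.45, those of Zfp36l1 at -0.40 and -0.44, and those of Dusp1 at 0.55 and 0.58. The part of the chromosome shift in these changes was not tested. Map2k3, Mapkapk2, Zfp36 and Elavl1 lie on chromosomes 11, 1, 7 and 8, whose medians were within 0.07 of 0.

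**Figure D2:**
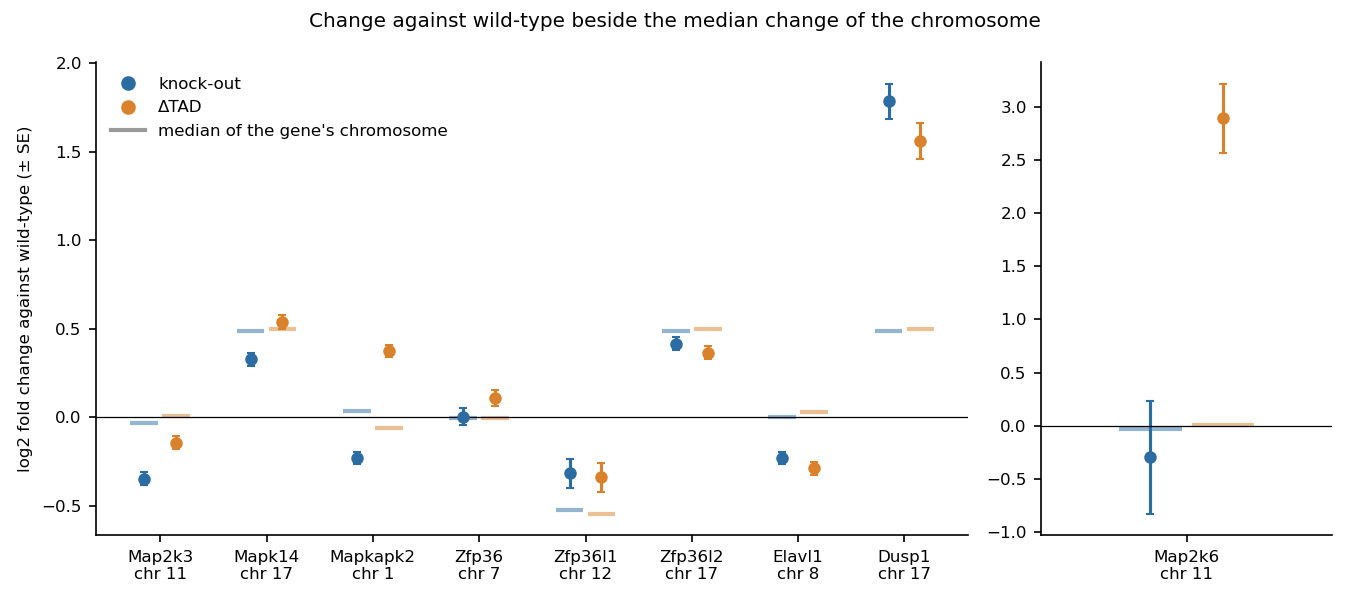
Log2 fold change of 9 genes against wild-type (y axis, points with SE) in knock-out and ΔTAD macrophages; short bars are the median change of all tested genes on the same chromosome, and Map2k6 has a y axis of its own. Beside the medians of chromosome 17 at 0.48 and 0.50, Mapk14 lies at 0.33 and 0.54 and Zfp36l2 at 0.42 and 0.36. Zfp36l1 lies at -0.32 and -0.34, above the medians of chromosome 12 at -0.52 and -0.54, and Dusp1 lies above its chromosome at 1.78 and 1.56.

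Per kilobase of exon, Mapkapk2 had the highest level of the axis in every genotype. It reached 109.5 ± 1.8 CPM per kilobase (SD, n = 3) for wild-type, 93.5 ± 2.4 for knock-out and 142.0 ± 1.5 for ΔTAD. In wild-type macrophages it was followed by Map2k3 at 45.3 ± 2.0, Zfp36l2 at 40.3 ± 1.2, Mapk14 at 33.2 ± 0.11, Elavl1 at 21.3 ± 0.66 and Zfp36 at 12.8 ± 0.23, levels that were separated by more than their SD. In both edited genotypes this order changed. Zfp36l2 with 53.8 ± 0.77 and 51.9 ± 1.3 and Mapk14 with 41.7 ± 1.9 and 48.3 ± 0.66 were above Map2k3, which stood at 35.7 ± 0.81 and 41.1 ± 0.45. Dusp1 was below Zfp36l1 in wild-type, at 1.77 ± 0.22 against 4.71 ± 0.16, and above it in the knock-out, at 6.10 ± 0.48 against 3.79 ± 0.25, and ΔTAD genotype, at 5.19 ± 0.40 against 3.73 ± 0.065. The levels were divided by the summed exon length of all annotated transcripts, so that a gene expressed as a short transcript is understated.

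**Figure D3:**
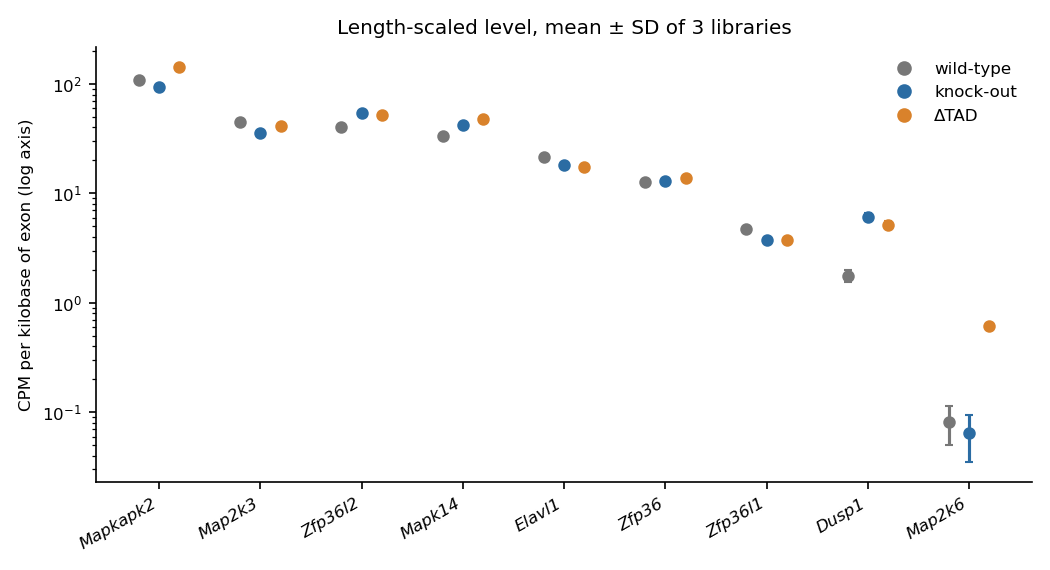
Level in CPM per kilobase of exon (y axis, log scale) of the 9 tested genes, ordered by their wild-type level, as mean with SD of 3 libraries per genotype. Mapkapk2 is highest in every genotype, Dusp1 lies below Zfp36l1 in wild-type but above it in both edited genotypes, and Map2k6 stays below 1 CPM per kilobase.

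The other genes of the pathway were taken from lists by function. Of 16 upstream genes and other p38 isoforms, 14 were tested. In knock-out macrophages 2 were called higher and 2 lower than wild-type, 28.6% of the list against 45.2% of all genes. In ΔTAD macrophages 4 were higher and 4 lower, 57.1% against 49.7%, and between both edited genotypes 2 were higher and 2 lower, 28.6% against 33.0%. These counts include Mapk13. The list had a median log2 fold change of 0.03 for knock-out and -0.10 for ΔTAD. Mapk11, the gene for p38β, was expressed at 2.54, 2.55 and 2.85 CPM in wild-type, at 8.12, 9.61 and 5.95 CPM in knock-out and at 4.267, 3.889 and 3.998 CPM in ΔTAD libraries. Knock-out was above ΔTAD and ΔTAD above wild-type without overlap, with log2 fold changes of 1.57 (SE 0.163, edgeR adjusted p = 1.0e-08) in knock-out and 0.61 (SE 0.184, edgeR adjusted p = 0.0062) in ΔTAD macrophages. Mapk13, the gene for p38δ, had 32, 18 and 28 counts in wild-type, 3, 3 and 2 in knock-out and 10, 12 and 10 in ΔTAD libraries. Over the summed counts its wild-type level was 9.63 times that in knock-out (95% exact interval 4.65 to 23.1, counting error only). Mapk13 would not have passed the filter on low counts without its wild-type libraries, so that no test is given for it. Even so, Mapk14 made up 95.9% ± 0.49, 93.7% ± 1.1 and 96.7% ± 0.21 (SD, n = 3) of the length-scaled level of the 4 p38 isoforms in wild-type, knock-out and ΔTAD macrophages. Map3k4, a kinase upstream of MKK3 and MKK6 that lies on chromosome 17, rose by 0.46 and 0.61 on the log2 scale (edgeR adjusted p = 8.4e-12 and 2.6e-14), where the chromosome median was 0.48 and 0.50.

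Of 16 other substrates and kinases below p38 and MK2, 15 were tested, of which 4 were called higher and 2 lower in knock-out and 5 higher and 2 lower in ΔTAD macrophages. Called in all were 6 and 7 of 15 genes, where 45.2% and 49.7% of all genes were called, and the medians were 0.08 and 0.06. Lsp1, an actin-binding leukocyte protein that MK2 phosphorylates, was expressed at 49.1, 47.6 and 48.2 CPM in wild-type, at 80.5, 81.6 and 87.2 CPM in knock-out and at 97.2, 103.7 and 115.9 CPM in ΔTAD libraries. The genotypes did not overlap, and Lsp1 rose by 0.78 (SE 0.052, edgeR adjusted p = 2.7e-12) and 1.13 (SE 0.050, edgeR adjusted p = 9.0e-16) on the log2 scale. Mef2c, a transcription factor that p38 phosphorylates, rose by 0.83 and 0.73 on the log2 scale (edgeR adjusted p = 6.5e-15 and 6.7e-14). Its relative Mef2a rose in knock-out (log2 fold change 0.44, edgeR adjusted p = 1.7e-10), whereas the value in ΔTAD macrophages was -0.07 (edgeR adjusted p = 0.11), and the edited genotypes differed by 0.50 (edgeR adjusted p = 4.9e-11). Hspb1, the small heat shock protein known as an MK2 substrate, had 0 counts in all libraries.

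Among the other phosphatases that act on MAP kinases, 12 of 14 genes were tested, and 3 were called higher and 5 lower than wild-type in each of the edited genotypes. These were 25.0% and 41.7% of the list, where 22.8% of all genes were called higher and 22.4% lower in knock-out and 26.3% and 23.4% in ΔTAD macrophages. The counts include Ppm1a at -0.55 and -0.52, on chromosome 12 with medians of -0.52 and -0.54. They also include Ppm1b at 0.49 and 0.40, on chromosome 17 with medians of 0.48 and 0.50. Dusp9, which acts mainly on ERK, was expressed at 4.99, 4.05 and 4.12 CPM in wild-type, at 0.896, 1.21 and 1.13 CPM in knock-out and at 9.23, 7.39 and 9.04 CPM in ΔTAD libraries. It thus stood below wild-type in knock-out (log2 fold change -2.03, SE 0.20, edgeR adjusted p = 4.0e-09) and above it in ΔTAD macrophages (log2 fold change 0.95, SE 0.13, edgeR adjusted p = 9.4e-07) without overlap, and the edited genotypes differed by -2.98 (edgeR adjusted p = 1.3e-12). Dusp2, a nuclear phosphatase of activated leukocytes, was expressed at 17.4, 16.5 and 16.4 CPM in wild-type, at 4.38, 4.29 and 4.59 CPM in knock-out and at 5.04, 6.10 and 6.71 CPM in ΔTAD libraries. It fell by 1.92 and 1.47 on the log2 scale (edgeR adjusted p = 6.3e-14 and 2.1e-12), in the opposite direction to Dusp1. Dusp5, an ERK phosphatase, fell by 0.47 in knock-out and by 1.27 in ΔTAD macrophages (edgeR adjusted p = 3.8e-08 and 1.3e-15).

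Of 19 further RNA-binding proteins, 16 were tested, and 4 were called higher and 5 lower in knock-out and 3 higher and 5 lower in ΔTAD macrophages. Called in all were 9 and 8 of 16 genes, where 45.2% and 49.7% of all genes were called. Between the edited genotypes 6 were higher and 4 lower in knock-out, 62.5% of the list, where 33.0% of all genes were called. The lower ones include Elavl4, which passed the filter on low counts only through its ΔTAD libraries. Ncl, the abundant nucleolar protein nucleolin, lay between 3954 and 4127 CPM in wild-type, between 2571 and 2693 CPM in knock-out and between 2820 and 2881 CPM in ΔTAD libraries, printed as the range of 3 libraries each. It fell by 0.61 and 0.50 on the log2 scale (edgeR adjusted p = 1.3e-17 and 5.9e-16). Zc3h12c, a relative of the endonuclease regnase-1, fell by 0.35 and 0.54 (edgeR adjusted p = 4.8e-07 and 3.8e-10). The gene for regnase-1 itself, Zc3h12a, rose by 0.36 and 0.39 (edgeR adjusted p = 0.0028 and 0.0011). Khsrp, which promotes decay of AU-rich mRNAs and lies on chromosome 17, rose by 0.37 and 0.43 (edgeR adjusted p = 1.0e-09 and 6.2e-11), less than the median of its chromosome.

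Of 39 genes of the deadenylation, decapping and exosome machinery, 38 were tested. In knock-out macrophages 3 were called higher and 14 lower, and in ΔTAD macrophages 7 higher and 13 lower, where 22.8% and 26.3% of all genes were called higher and 22.4% and 23.4% lower. The medians of the list were -0.12 and -0.08. Cnot3, a subunit of the CCR4-NOT deadenylase that tristetraprolin recruits, was expressed at 83.2, 80.9 and 82.7 CPM in wild-type, at 73.3, 75.6 and 76.8 CPM in knock-out and at 59.3, 56.1 and 57.2 CPM in ΔTAD libraries. The genotypes did not overlap, and Cnot3 fell by 0.13 (SE 0.035, edgeR adjusted p = 0.0031) and 0.52 (SE 0.036, edgeR adjusted p = 6.8e-12) on the log2 scale. Tob1, an adaptor of the same deadenylase, rose by 0.42 in ΔTAD macrophages (edgeR adjusted p = 0.00046) and had a value of 0.22 in knock-out (edgeR adjusted p = 0.057). Skiv2l, a helicase that assists the cytoplasmic exosome and lies on chromosome 17, rose by 0.48 and 0.54 (edgeR adjusted p = 3.6e-10 and 4.1e-11).

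**Figure D4:**
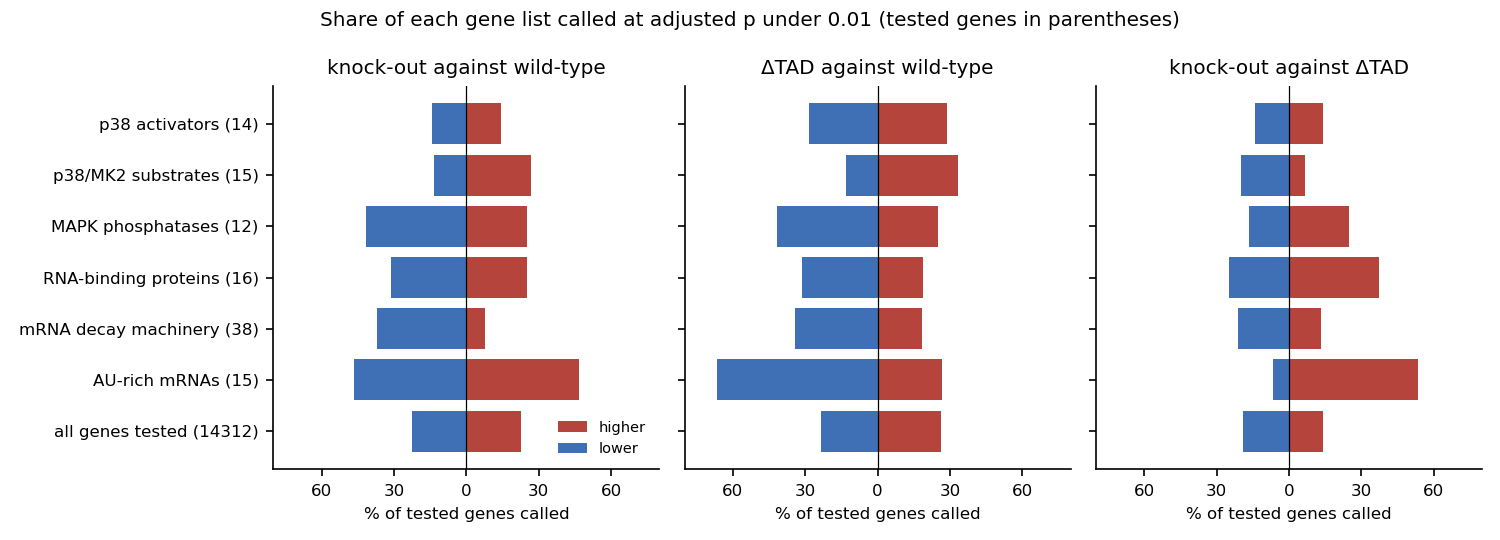
Share of the tested genes of each list (number in parentheses) called higher (right of 0) or lower (left of 0) at an adjusted p under 0.01, in percent on the x axis, for the 3 comparisons. For the mRNA decay machinery 7.89% are higher and 36.8% lower in knock-out against wild-type. For the AU-rich mRNAs 66.7% are lower in ΔTAD against wild-type, including Ccl7 and Ptgs2, which were tested only through their wild-type libraries. The lowest bar shows all 14312 genes.

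Finally, the mRNAs at the end of the axis were examined. Of 26 cytokine and immediate-early mRNAs known for AU-rich elements, 15 were tested in these unstimulated cells. In knock-out macrophages 7 were called higher and 7 lower than wild-type, with a median log2 fold change of -0.07, where 22.8% of all genes were called higher and 22.4% lower. In ΔTAD macrophages 4 were called higher and 10 lower, with a median of -1.12, where 26.3% and 23.4% of all genes were called. Knock-out was above ΔTAD macrophages in 8 and below in 1, with a median of 0.64, where 13.9% and 19.1% of all genes were called. Ccl7 and Ptgs2 are among the tested genes only through their wild-type libraries. Both thus had to be lower than wild-type, and both are in the counts called lower against it. Ccl7 had 0 counts in all ΔTAD libraries. Set to the floor of 3 counts over the group, it stood at -3.89 (knock-out) and -3.97 (ΔTAD), still below the list medians. The medians against wild-type thus could not change.

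Tnf, whose mRNA is the best known target of tristetraprolin, was expressed at 186.9, 175.2 and 175.5 CPM in wild-type, at 328.7, 324.5 and 329.6 CPM in knock-out and at 232, 234 and 232 CPM in ΔTAD libraries. The genotypes did not overlap, with knock-out highest and wild-type lowest. Tnf rose by 0.87 in knock-out (SE 0.036, edgeR adjusted p = 3.2e-16) and by 0.38 in ΔTAD macrophages (SE 0.036, edgeR adjusted p = 2.2e-09), and the edited genotypes differed by 0.49 (edgeR adjusted p = 5.6e-11). Tnf lies on chromosome 17, and after subtraction of the chromosome median its value was 0.39 in knock-out and turned to -0.12 in ΔTAD macrophages.

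Ccl2, the gene for the chemokine MCP-1, was expressed at 38.04, 33.8 and 32.3 CPM in wild-type, at 0.422, 0.967 and 0.793 CPM in knock-out and at 0.420, 0.576 and 0.428 CPM in ΔTAD libraries. It fell by 5.59 and 6.16 on the log2 scale (edgeR adjusted p = 3.9e-20 and 1.3e-20). Ptgs2, the gene for cyclooxygenase-2, went from 20.99, 20.89 and 21.56 CPM in wild-type to 0.527, 0.846 and 1.59 CPM in knock-out and 0.140, 0.384 and 0.571 CPM in ΔTAD libraries, log2 fold changes of -4.42 and -5.73 that are given without a test. Both were at or below 1.59 CPM in every edited library. Myc, a growth-promoting transcription factor, rose from 2.99, 2.26 and 2.36 CPM in wild-type to 24.99, 26.5 and 29.2 CPM in knock-out and 23.1, 23.5 and 25.5 CPM in ΔTAD libraries, by 3.39 and 3.23 on the log2 scale (edgeR adjusted p = 3.1e-18 and 8.6e-18). Il6 had 1 count over all libraries and Il10 had 0.

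Some genes of this list that separated the edited genotypes are named because of their values. The chemokine gene Cxcl2, with 4 nonamers in its 3′ UTR, was higher in knock-out than in ΔTAD macrophages by 1.99 on the log2 scale (SE 0.134, edgeR adjusted p = 1.8e-11), Ccl3 by 1.63 (SE 0.039, edgeR adjusted p = 2.5e-20) and Ccl4 by 1.51 (SE 0.051, edgeR adjusted p = 2.6e-17). Fos, an immediate-early transcription factor, was the one gene called lower in knock-out, with a difference of -1.32 (SE 0.064, edgeR adjusted p = 3.1e-14). The 3′ UTR of Fos held 1 nonamer, whereas those of Ccl3 and Ccl4 held no nonamer. In the whole list, 9 of 26 genes held it.

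**Figure D5:**
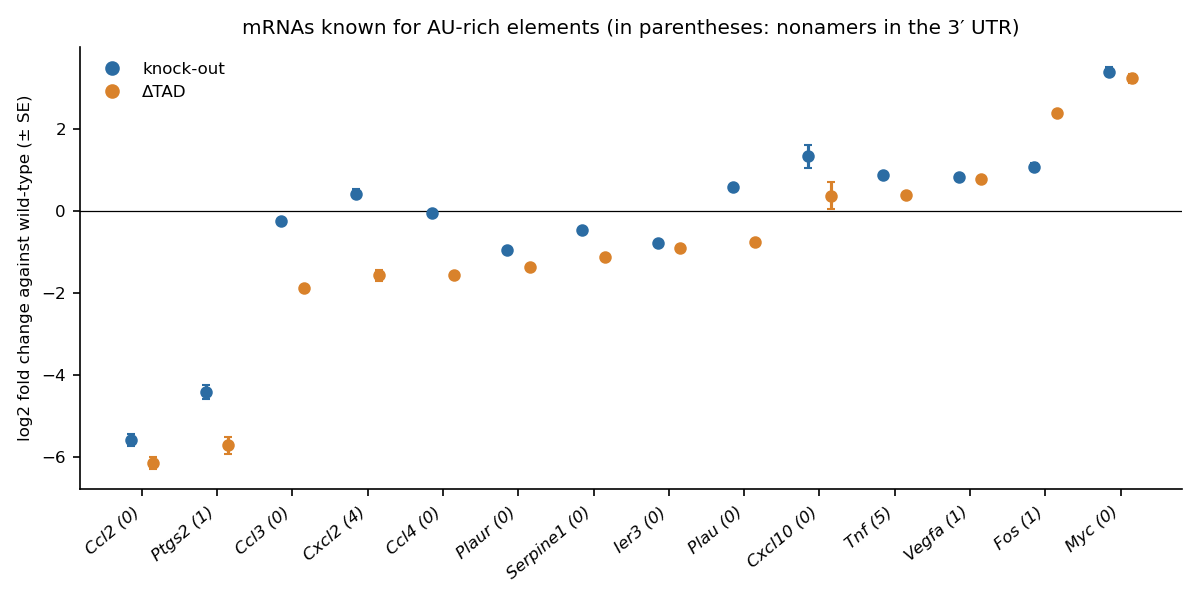
Log2 fold change against wild-type (y axis, points with SE) of mRNAs known for AU-rich elements in knock-out and ΔTAD macrophages, ordered by the ΔTAD value, with the number of nonamers in the 3′ UTR in parentheses. Ccl2 and Ptgs2 lie between -4.42 and -6.16 in both genotypes and Myc above 3, while Ccl3, Cxcl2 and Ccl4 are lower in ΔTAD than in knock-out; Ccl7, with 45 counts in wild-type and 1 in all edited libraries, is not drawn.

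Over the whole transcriptome, 901 tested genes held the nonamer in their 3′ UTR. Of these, 286 were called higher and 224 lower in knock-out, and 247 higher and 294 lower in ΔTAD macrophages, or 56.6% and 60.04% called in all, where 53.3% and 57.6% of the 10945 tested genes with an annotated 3′ UTR were called. The median log2 fold changes were 0.03 and -0.02. Between the edited genotypes 217 genes with the nonamer, or 24.1%, were called higher in knock-out and 112, or 12.4%, lower, where 13.4% and 23.8% of genes with an annotated 3′ UTR were called and 37.2% in either direction. The median of this difference was 0.05 against -0.05. Genes with the nonamer had longer 3′ UTRs, with a median of 2288 bases against 1159. Among 2213 genes without the nonamer whose 3′ UTR was at least as long as that median, a comparison chosen after the shares were seen, 21.4% were called higher and 18.6% lower in knock-out than in ΔTAD macrophages. The part of the 3′ UTR length in the shares was not tested.

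The genes whose log2 CPM followed that of Mapkapk2 most closely over the 9 libraries, among 14311 others, were Hip1 (Pearson r = 0.996), Rpusd4 (0.995), Ap1s1 (0.991), Trim62 (0.987) and Tns4 (0.985). The libraries fall into 3 genotypes, so that these values describe the order knock-out, wild-type, ΔTAD and carry no p-value. Hip1, an endocytic adaptor, had mean levels of 99.8 CPM in knock-out, 128 in wild-type and 178 in ΔTAD macrophages, and Tns4, a focal adhesion protein, 1.46, 3.91 and 13.4 CPM. With a prior count of 0.25 in place of 2, 4 of the 5 genes were shared.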

How the data were processed

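Per the labels and methods, ribosomal RNA was depleted before single-read sequencing. The authors trimmed the reads with Trimmomatic (0.36 in the submitters' processing notes), used Hisat2 to align them to GRCm38, and obtained counts per Ensembl gene from HTSeq. They deposited 1 list of raw counts per library, without normalization. The strand and overlap settings of the counting are not given in the sources used here, so that counts of overlapping and antisense genes are uncertain. Between 46.7% and 53.2% of records fell on genes, 16113306 to 20981829 counts per library, and the 5 tally lines (46.8% to 53.3% of records) were left out of library sizes. A floor of 3 counts equals 0.143 to 0.186 CPM, and intervals and floors cover counting error only.

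Genotypes were taken from the sample labels. The analysis used edgeR 4.0.16 (R 4.3.3) with its filter on low counts (filterByExpr by genotype, at least 10 counts and 15 in total), TMM scaling (factors from 0.888 for ΔTAD replicate 1 to 1.027) and 1 quasi-likelihood model of all 9 libraries, with a common coefficient of biological variation of 0.0468. Genes with a Benjamini-Hochberg adjusted p under 0.01 over 14312 genes were called. Standard errors were derived from the log2 fold change and the F statistic. Tested on simulated data, the knock-out comparison recovered 100% of genes changed by 1 and 83% of those changed by 0.5 on the log2 scale among 14075 genes. The simulation changed 200 genes, none of low level, with noise drawn from the fitted model, and 5 unchanged genes were called. In the data 45.2% of genes were called in this comparison and whole chromosomes shifted. The recovery thus describes the simulated setting and not genes of low level. No replicate pair agreed within sampling noise. The 3′ UTRs, positions and exon lengths came from the GENCODE annotation of GRCm38, with the longest 3′ UTR per gene, and promoters from RefSeq.

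The members and all lists were chosen with earlier results of these data known. Named were the 10 members, Cebpd, per list up to 3 called genes with the largest change against wild-type and at least 1 CPM in the higher genotype, further Tnf, Il6, Il10, Ccl2 and Ptgs2, and the 5 genes most like Mapkapk2. Other features, such as Cxcl2, Ccl3, Ccl4, Fos, Ccl7, Hspb1, Zc3h12a, Elavl4, Ppm1a, Ppm1b, Lyz2 and Fcgr1, were named after their values were seen. As alternatives, DESeq2 1.42.0 and limma-voom (limma 3.58.1) were run, and other scalings, filters, thresholds and prior counts, fits of 2 genotypes at a time, a replicate block, chromosome-centred values, another motif and the omission of each library were tried.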

Additional observations from a re-analysis of the deposited data

How the results depend on the processing

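The 509 alternative values of the members include Mapkapk2, chosen for its direction, and Map2k6, which passed the filter only through its ΔTAD libraries. Nothing on these genes is read from the tally. Of the 509 values, 478 kept their direction and side of the threshold and 15 changed sign. Centred on the chromosome median, these were Mapk14 at -0.16 in knock-out, Zfp36l1 at 0.21 in both edited genotypes, and Zfp36l2 at -0.068 in knock-out and -0.14 in ΔTAD macrophages. The others were not called under any setting: leaving out each library gave -0.64 to 0.051 for Map2k6 and -0.0095 to 0.029 for Zfp36 in knock-out, and -0.016 to 0.065 for Zfp36l1 between the edited genotypes, and Zfp36 in knock-out stood at -0.011 with library size as the only scaling and at -0.0046 with at least 10 counts required per library. Of 489 alternative counts of called genes, 477 stayed within 1.5 times the reported count. At an adjusted p under 0.05, 7 of 14 upstream genes were called in knock-out against wild-type and 7 between the edited genotypes (4 each as reported). Between the edited genotypes, 9 of 15 substrates and 20 of 38 genes of the decay machinery were called. At the threshold of 0.01 these were 4 and 13, or 26.7% and 34.2%, where 33.0% of all genes were called. The share of all genes called at 0.05 is not given, so that nothing is read from the larger counts. With library size as the only scaling, which moved the median of all genes by -0.09 in ΔTAD macrophages, the decay machinery had 9 called genes (17) in knock-out and 7 (13) between the edited genotypes. With at least 3 ATTTA pentamers in place of the nonamer, a larger set by construction, 4143 genes were tested. Called were 2305 in knock-out, 2471 in ΔTAD and 1544 between both, or 55.6%, 59.6% and 37.3%. Of all tested genes with an annotated 3′ UTR, 53.3%, 57.6% and 37.2% were called. Leaving out each library gave 5 to 8 called upstream genes in ΔTAD macrophages (lowest without wild-type replicate 2). It gave 5 to 10 called RNA-binding genes between the edited genotypes (6 without knock-out replicate 2, 5 without ΔTAD replicate 3). With all libraries these were 8 of 14 and 10 of 16 tested genes. Of all genes, 6454 to 7116 and 3737 to 4816 were called when each library was left out. Except where named, the cause was not tested. Map2k6 could not be tested where every library had to hold at least 10 counts. Libraries with the same replicate number did not deviate together (r from -0.072 to 0.02), so that the numbers do not pair them. With the replicate number as a block, 6279, 6900 and 4465 genes were called (6468, 7115 and 4730 without it) and 6, 7 and 3 members, as without it. Depth limits statements on Mapkapk3, Map2k6, Mapk13, Il6 and Il10.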
